A study of Mus musculus with 10 samples.

Results

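Clade B serpins are the intracellular branch of the serpin family of protease inhibitors, and they were followed here in back skin of mice that carry more tristetraprolin (TTP), the mRNA-destabilizing protein encoded by Zfp36. Members were taken as every row of the count table whose gene symbol begins with Serpinb, which gave 27 of the 24454 rows. The rule itself uses no measured value. In skin, 18 of the 27 were expressed, taken as at least 1 CPM (a count scaled to a common library total) in at least 5 of the 10 libraries, and 19 passed the filter on low counts and were tested. In Zfp36ΔARE skin 2 of the 19 were higher than in WT skin at an adjusted p under 0.05 (against 15.3% of all tested genes) and 8 were lower (against 19.1%). Of the 8 lower members 7 belong to the Serpinb1, Serpinb6 and Serpinb9 paralog groups on chromosome 13, and both higher members, Serpinb11 and Serpinb13, are single genes on chromosome 1.

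A serpin offers the target protease a flexible loop, the reactive centre loop, as bait. Cleavage of the loop between the residues named P1 and P1′ snaps the serpin into a new fold and traps the protease in a dead complex, so the residue at P1 decides much of which protease is caught. Clade B members lack a classical signal peptide and act mostly inside the cell, where they guard it against proteases released from its own granules or lysosomes or delivered by cytotoxic cells. Several are abundant in stratified squamous epithelium. In the mouse, paralog groups such as Serpinb3, Serpinb6 and Serpinb9 are expanded where humans have a single gene or a pair.

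The libraries came from treated back skin without tumors of 5 WT and 5 Zfp36ΔARE mice, 1 library per mouse, all C57BL/6 and compared with littermates. The ΔARE allele lacks an instability motif in the 3′-UTR of Zfp36 and raises TTP in the whole body, not in 1 cell type. From 7 weeks of age all mice of both groups received 400 nmol DMBA once, as the mutagen that initiates tumors, and then 10 nmol TPA, the phorbol ester that promotes them, 2 times a week over 20 weeks, so no untreated skin entered the comparison. Zfp36 itself had 2152 ± 277 normalized counts (SD, n = 5) in WT and 5427 ± 766 (n = 5) in Zfp36ΔARE skin, above every WT library in each of the 5. A normalized count is the count scaled by edgeR's TMM method to a common library size. Depth was 21638400 to 32583217 counts in WT and 19595035 to 36419573 in Zfp36ΔARE libraries. The keratinocyte keratin Krt5 was high in every library, at 85463 to 143989 normalized counts in WT and 85762 to 142643 in Zfp36ΔARE skin.

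A further difference between the libraries touches every comparison of genotypes below. Zfp36ΔARE replicates 2 to 5 held 3349 to 4262 counts of Y-linked genes, and the other 6 libraries, all WT and Zfp36ΔARE replicate 1, held at most 1. Genotype and the presence of Y-linked counts therefore cannot be told apart except through Zfp36ΔARE replicate 1, whose values are given separately where they stand away from the other 4. The tissue make-up differed as well: the summed level of 14 macrophage markers was 1081 to 2045 CPM in WT and 548 to 797 CPM in Zfp36ΔARE libraries (13 of 14 passed as lower), that of 12 skeletal muscle markers 9461 to 47581 and 5367 to 12173 CPM (11 of 12 lower), and that of 14 hair shaft markers 126 to 4024 and 6375 to 17789.8 CPM (6 of 14 higher with edgeR, 14 with DESeq2, and 14 without overlap). Among all 15543 tested genes 15.3% passed as higher and 19.1% as lower with edgeR, and DESeq2 called 3067 higher. In 11.2% of them every Zfp36ΔARE library lay above every WT library. Lower markers were also 8 of 10 for adipocytes, 9 of 10 for endothelium, 7 of 10 for fibroblasts and 6 of 10 for the sebaceous gland. Their sums were 3039.9 to 7901 against 1814 to 2653, 236 to 518 against 148 to 189, 7098 to 14763 against 4048 to 10556 and 3899 to 8665 against 2454 to 3171 CPM, overlapping only for fibroblasts. No marker of these lists was at 0 in all libraries, and the part of these cells in the serpin differences was not tested. In whole skin, fewer cells of a type and less RNA per cell cannot be told apart.

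The Serpinb6 paralogs are the group with the most members at a measurable level, and their predicted loops are set side by side here. The windows below hold 30 bases of the reference coding strand in mm10 (GRCm38) around the cleavage position, all in the last exon. The capitals are the codons of the predicted P1 and P1′ residues, placed 14 residues after the glycine of the conserved hinge, so a loop with an insertion or deletion would shift them.
Serpinb6a (chr13:33918134-33918163, minus strand): atgatgacggtgAGGTGCatgagattcact
Serpinb6b (chr13:32978237-32978266, plus strand): aatataggttttAGGTGTatggtcccctac
Serpinb6c (chr13:33880021-33880050, minus strand): gttctgaaggggTCATCAcggtccacccct
Serpinb6d (chr13:33671362-33671391, plus strand): gtgatgatgggtGCATCAccaactacccac
Serpinb6e (chr13:33832549-33832578, minus strand): gtcacagtggggTCACCActgactcagcgg
Over whole coding sequences the Serpinb6 paralogs were 67.6% to 86.6% identical in pairs, yet the loop windows matched at only 6 to 19 of 30 bases. Serpinb6a and Serpinb6b both carry a codon for arginine at the predicted P1, whereas Serpinb6c and Serpinb6e carry one for serine and Serpinb6d one for alanine.

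The Serpinb3 pair is shown as the contrast, because the windows of its 2 expressed copies match at nearly all bases.
Serpinb3a (chr1:107046109-107046138, minus strand): gaagtcagtttaACATCAgcacagatagca
Serpinb3b (chr1:107154462-107154491, minus strand): gaagtcagtgtaAGATCAgcacagatagca
These windows matched at 28 of 30 bases, and the coding sequences of Serpinb3a and Serpinb3b were 92.9% identical. A mismatch nevertheless lies in the predicted P1 codon, which is for threonine in Serpinb3a and for arginine in Serpinb3b. The hinge was found in 26 of the 27 members and not in Serpinb5 (maspin), a clade B protein known to inhibit no protease by this mechanism.

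Levels were compared between members per length, as FPKM (TMM-scaled counts per kilobase of counted exon, with the library scaled as for CPM). Serpinb5, known as an epithelial tumor suppressor, was the most abundant member, at 188 ± 31.6 FPKM (SD, n = 5) in WT and 219.9 ± 8.61 FPKM in Zfp36ΔARE skin. Serpinb6a, an inhibitor of trypsin-like proteases and cathepsin G, came next at 125 ± 26.3 and 80.7 ± 13.96 FPKM. These 2 genes together made up 45.7% to 63.0% of the summed FPKM of all 27 members across the 10 libraries.

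Below them lay Serpinb2, Serpinb12 and Serpinb8. Serpinb2 (plasminogen activator inhibitor 2) had 50.3 ± 10.2 FPKM in WT and 48.4 ± 9.58 FPKM in Zfp36ΔARE skin. Serpinb12 had 51.9 ± 10.0 and 39.0 ± 25.2 FPKM, and Serpinb8, an inhibitor of furin, had 37.4 ± 1.98 and 35.5 ± 3.97 FPKM. Serpinb2 was above Serpinb12 in only 5 of the 10 libraries and Serpinb12 above Serpinb8 in 7, so the order of these 3 is not fixed beyond their spread. Serpinb6a was above Serpinb2 in all 10 libraries, and Serpinb5 above Serpinb6a in 9.

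The remaining expressed members fell into a middle and a low tier. Serpinb7, Serpinb6d, Serpinb6e, Serpinb3a, Serpinb11, Serpinb3b and Serpinb1a had means over all libraries between 13.3 and 21.8 FPKM, and no neighbours in that order were separated in all 10 libraries. Serpinb6c followed at 8.62 FPKM, and Serpinb10, Serpinb13, Serpinb9, Serpinb6b and Serpinb1c lay between 1.03 and 3.14 FPKM. Within that low tier Serpinb9 was above Serpinb6b in all 10 libraries.

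The paralog groups differed most in how many copies were on. All 5 Serpinb6 rows were expressed, but only 2 of 4 Serpinb3 rows (Serpinb3a, Serpinb3b), 2 of 3 Serpinb1 rows (Serpinb1a, Serpinb1c) and 1 of 7 Serpinb9 rows (Serpinb9). Serpinb9b was tested but reached 1 CPM in only 2 libraries. The 8 members that were not tested had 0 to 46 counts in the 10 libraries together, and no library held more than 8 counts of any of them. Serpinb3d had 46, Serpinb1b 35 and Serpinb3c 14 counts over all libraries.

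The 5 remaining Serpinb9 rows were close to silent. Serpinb9c, Serpinb9e and Serpinb9f had 1 count each over all libraries, and Serpinb9d and Serpinb9g had 0. A count of 0 over the 10 libraries allows a level of up to 0.0112 CPM (3 counts, for counting error only). These copies also share sequence: 78.7% of the 50-base stretches of Serpinb9f and 54.8% of those of Serpinb9g recur in another gene of the annotation, so fragments from them could have been lost or assigned elsewhere in counting. For Serpinb9 itself this share was 0.380%.

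**Figure D1:**
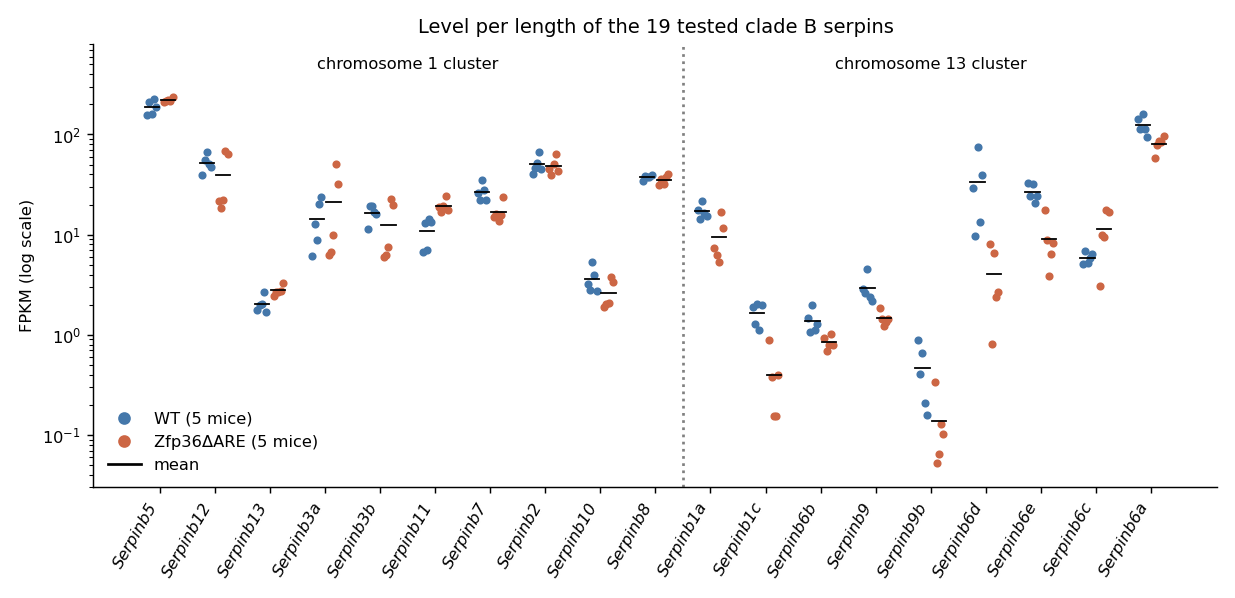
FPKM on a log axis for the 19 tested clade B serpins in chromosomal order, one point per mouse (blue WT, orange Zfp36ΔARE, 5 each) with a bar at the group mean. Serpinb5 and Serpinb6a lie highest in both groups, Serpinb9b lowest, and the Zfp36ΔARE points of Serpinb12, Serpinb3a and Serpinb3b split into 3 low and 2 high mice.

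The question of the comparison was which genes differ in treated skin when TTP is raised. Serpinb11 and Serpinb13 were higher, 2 of the 19 tested members against 15.3% of all 15543 tested genes. Lower were Serpinb7, Serpinb1a, Serpinb1c, Serpinb6a, Serpinb6b, Serpinb6d, Serpinb6e and Serpinb9, 8 of 19 against 19.1% of all genes. With a fold change over 2 as well, Serpinb1c, Serpinb6d and Serpinb6e were lower (3 of 19, against 6.64% of all genes) and 0 were higher with edgeR or DESeq2 (against 1.67%). Every Zfp36ΔARE library lay below every WT library for Serpinb1c, Serpinb6b, Serpinb6d, Serpinb6e and Serpinb9 (5 of 19, against 11.9% of all genes), and above for Serpinb11 (1 of 19, against 11.2%). The median log2 fold change was -0.47 over the 19 members and 0.0076 over all tested genes.

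The members sit in a pair of gene clusters, whose counts are set beside the 15.3% higher and 19.1% lower among all tested genes. The chromosome 1 cluster (chr1:106861173-107610484) holds 12 members, of which 10 were tested, 2 were higher, 1 was lower and the median log2 fold change was -0.065. The chromosome 13 cluster (chr13:32842092-34002794) holds 15 members, of which 9 were tested, 0 were higher with edgeR (Serpinb6c alone with DESeq2 and at an unadjusted p under 0.05), 7 were lower and the median was -0.99. The difference between the clusters was not tested.

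**Figure D2:**
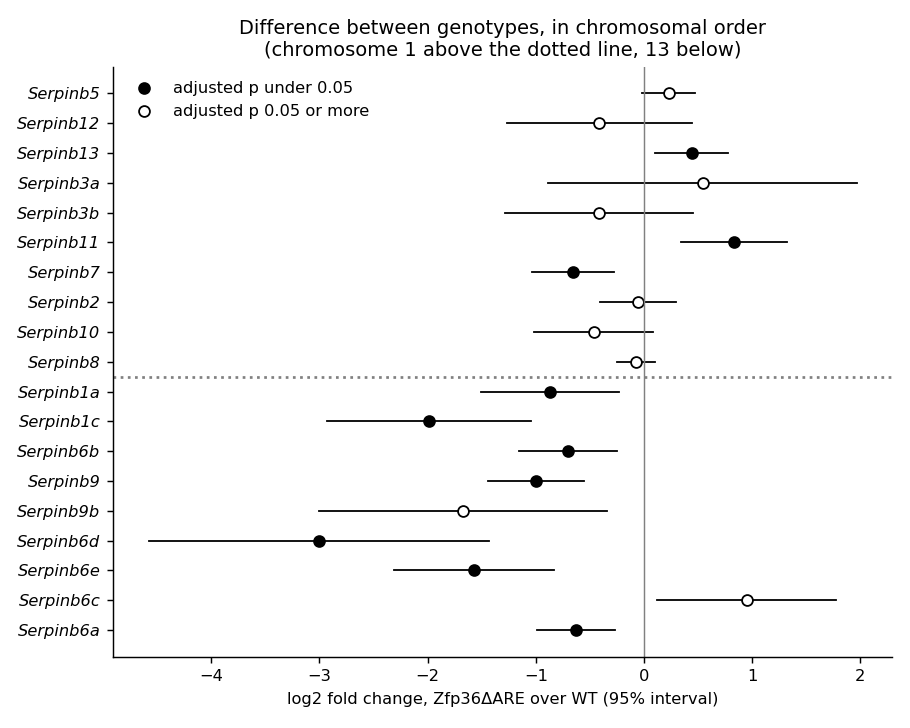
Log2 fold change of each tested clade B serpin, Zfp36ΔARE over WT, with its 95% interval (edgeR, 5 mice per group), in chromosomal order. Filled points passed an adjusted p of 0.05: of the chromosome 13 members only Serpinb9b and Serpinb6c did not pass, and Serpinb6c is the only one of them above 0.

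Of the 5 Serpinb6 paralogs 4 fell, with log2 fold changes from -0.63 to -3.004. No pair of paralogs passed the adjusted test of such a difference given below. Serpinb6a had 7254, 5657, 8003, 5760.1 and 4722 normalized counts in WT replicates 1 to 5 and 2946, 3958, 4377, 4199 and 4839 in Zfp36ΔARE replicates 1 to 5. Only Zfp36ΔARE replicate 5 reached into the WT range (log2 fold change -0.63, SE 0.16, adjusted p = 0.0172). Annotated exons of Serpinb6a overlap those of opposite-strand genes, over up to 762 bases with any single gene. How much of this lies in counted sequence was not determined. Since it is not given whether counting used strand, part of the Serpinb6a count could come from these genes. Serpinb6b, whose product is known to inhibit granzyme A, had 73.7, 53.3, 98.8, 55.3 and 62.9 normalized counts in WT and 46.5, 34.4, 39.5, 50.7 and 39.6 in Zfp36ΔARE skin, without overlap (log2 fold change -0.70, SE 0.20, adjusted p = 0.0253). The Serpinb6b call was lost without WT replicate 1 or Zfp36ΔARE replicate 2 or 3 (adjusted p up to 0.0627).

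Serpinb6e had 1299, 968, 1284, 824 and 965 normalized counts in WT and 695, 355, 155, 254 and 326 in Zfp36ΔARE skin (log2 fold change -1.57, SE 0.34, adjusted p = 0.00961). All 5 Zfp36ΔARE values were below the lowest WT value, and Zfp36ΔARE replicate 1 was the closest to it. Serpinb6d had 1138, 383, 2913, 529 and 1553 normalized counts in WT and 315, 31.7, 255, 93.5 and 105 in Zfp36ΔARE skin (log2 fold change -3.004, SE 0.71, adjusted p = 0.0137). It was the member with the largest fold change of the 19, and its WT libraries alone spanned a wide range.

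Several marker sums had their extremes in the same WT libraries as Serpinb6d. The summed CPM of the 12 skeletal muscle markers in WT replicates 1 to 5 was 24158, 9461, 47581, 15471 and 20294, so replicate 3 was highest and replicate 2 lowest, as for Serpinb6d. The adipocyte sum, at 5081, 3039.9, 7901, 3859 and 3822 CPM in WT, had the same extremes, and the mast cell and endothelial sums were highest in replicate 3 too. In Zfp36ΔARE replicates 1 to 5 the muscle sum was 7289, 7546, 12173, 5367 and 7161, and there the order differed from that of Serpinb6d, which was highest in replicate 1. The part of these cells in the Serpinb6d difference was not tested.

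Serpinb6c was the one paralog with a value above WT in most Zfp36ΔARE mice. Of its 50-base stretches 10.4% recur in other annotated genes, the far more abundant Serpinb6a among them, so part of its count is uncertain. Serpinb6c had 179, 245, 183, 207 and 225 normalized counts in WT and 109, 355, 334, 624 and 596 in Zfp36ΔARE skin, and its difference did not pass (log2 fold change 0.95, 95% interval 0.12 to 1.78, adjusted p = 0.0712). The low value was that of Zfp36ΔARE replicate 1, the Zfp36ΔARE library without Y-linked counts, and the other 4 lay above all WT values. Without that library the difference passed (log2 fold change 1.196, adjusted p = 0.0128), and with DESeq2 on all libraries it did too (adjusted p = 0.0261). For Serpinb6d, Serpinb6e, Serpinb1c, Serpinb9 and Serpinb9b the same library was the highest of the 5 and so the nearest to WT, whereas for Serpinb6a it was the lowest.

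**Figure D3:**
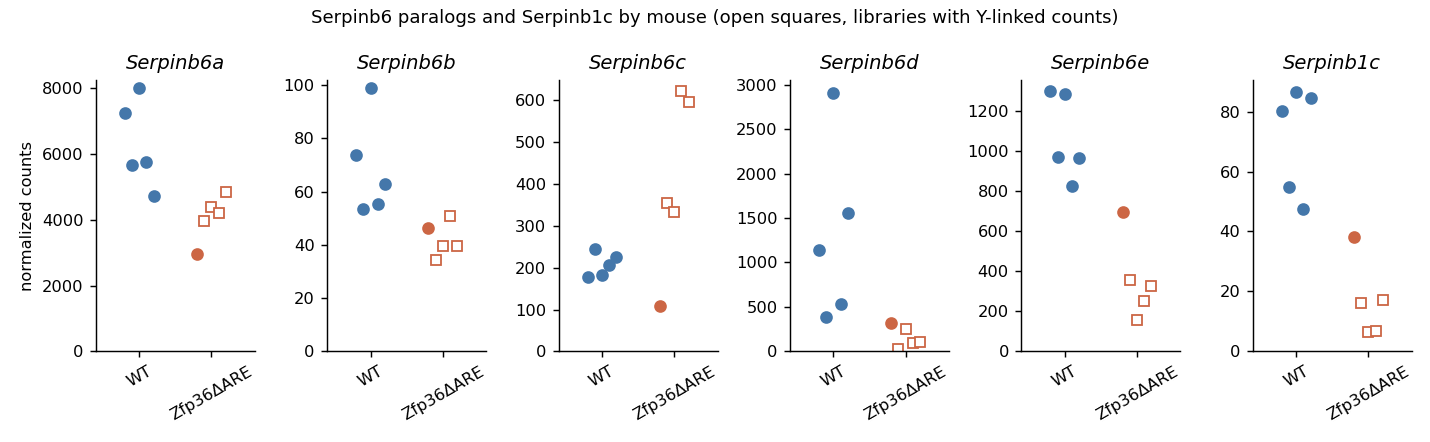
Normalized counts of the 5 Serpinb6 paralogs and Serpinb1c, one point per mouse (blue WT, orange Zfp36ΔARE; open squares mark the 4 libraries with Y-linked counts). Serpinb6b, Serpinb6d, Serpinb6e and Serpinb1c do not overlap between groups, and for Serpinb6c the single filled Zfp36ΔARE point lies below WT while the 4 squares lie above.

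Summed over its 5 rows the Serpinb6 group had 8928 ± 2274 normalized counts in WT and 5026 ± 662 in Zfp36ΔARE skin (log2 fold change -0.83, SE 0.16, adjusted p = 0.00782), one of 15536 features in a fit in which 19.1% were lower and 15.2% higher. The rows took unequal shares of that sum (mean ± SD over 5 libraries). Serpinb6a made up 71.1% ± 7.27 in WT and 80.5% ± 5.21 in Zfp36ΔARE skin, and Serpinb6d 13.6% ± 8.06 in WT and 3.37% ± 2.88 in Zfp36ΔARE skin. The share of Serpinb6e was 12.1% ± 1.32 in WT and 7.55% ± 5.47 in Zfp36ΔARE skin. That of Serpinb6c was 2.48% ± 0.808 in WT and 7.73% ± 3.57 in Zfp36ΔARE skin.

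To ask whether paralogs differ in their response, the log2 ratio of 2 members within each library was compared between genotypes by exact two-sided permutation tests, for 14 pairs in all, of which 10 are within the Serpinb6 group. The smallest p that 5 against 5 allows is 0.00794, so over 14 pairs even a fully separated pair could not pass adjustment unless several others were about as low. The ratio of Serpinb6b to Serpinb6d was -3.90 ± 0.87 (log2, SD, n = 5) in WT and -1.52 ± 1.22 in Zfp36ΔARE skin, with no overlap. Its p was 0.00794, but adjusted over the 14 pairs it was 0.0741. No pair passed after adjustment, 8 had an unadjusted exact permutation p under 0.05, all within the Serpinb6 group, and without Zfp36ΔARE replicate 1 the number that passed after adjustment was 9. For Serpinb6a over Serpinb6b the ratio differed by 0.055 (log2, SE 0.20).

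The Serpinb1 paralogs, whose human counterpart inhibits neutrophil elastase, proteinase 3 and cathepsin G, both fell. Serpinb1a had 906, 729, 1118, 845 and 794 normalized counts in WT and 374, 321, 275, 853 and 595 in Zfp36ΔARE skin (log2 fold change -0.87, SE 0.29, adjusted p = 0.0405). Zfp36ΔARE replicate 4 lay inside the WT range and the other 4 below it. Zfp36ΔARE replicates 1 to 3 were lower than replicates 4 and 5, as in the suprabasal and granular keratinocyte sum printed with Serpinb12. This call held in only 3 of the 10 fits that left out 1 library, those without WT replicate 2 or Zfp36ΔARE replicate 4 or 5 (adjusted p 0.0106 to 0.0894).

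Serpinb1c, the rarer copy, had 80.1, 54.9, 86.6, 47.6 and 84.6 normalized counts in WT and 38.2, 16.3, 6.59, 6.68 and 17.1 in Zfp36ΔARE skin, without overlap (log2 fold change -1.98, SE 0.43, adjusted p = 0.00953). It passed in all 10 fits with 1 library left out. Together the 3 Serpinb1 rows had 954 ± 162 normalized counts in WT and 504 ± 239 in Zfp36ΔARE skin (log2 fold change -0.93, SE 0.28, adjusted p = 0.0288), and Serpinb1a made up 92.1% ± 1.79 in WT and 95.4% ± 3.03 in Zfp36ΔARE skin.

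Serpinb9, the inhibitor of granzyme B that protects cytotoxic and antigen-presenting cells from their own or incoming granules, fell by just under 2-fold. It had 259.7, 236, 409, 218 and 199 normalized counts in WT and 167, 130.4, 112, 121 and 129 in Zfp36ΔARE skin, without overlap (log2 fold change -0.99, SE 0.20, adjusted p = 0.0083). The highest Zfp36ΔARE value was that of replicate 1, the Zfp36ΔARE library without Y-linked counts. Serpinb9b, known as an inhibitor of granzyme M, had 46.0, 21.0, 34.2, 10.7 and 8.25 normalized counts in WT and 17.2, 2.72, 3.29, 6.68 and 5.27 in Zfp36ΔARE skin, a difference that did not pass (log2 fold change -1.67, 95% interval -2.999 to -0.34, adjusted p = 0.0527) but did without WT replicate 4 or 5 or Zfp36ΔARE replicate 1 (adjusted p down to 0.0247) and with DESeq2 on all libraries (log2 fold change -1.73, adjusted p = 0.0224). The 7 rows together had 289 ± 94.3 normalized counts in WT and 139 ± 26.4 in Zfp36ΔARE skin (log2 fold change -1.05, SE 0.21, adjusted p = 0.00855), of which Serpinb9 made up 91.9% ± 4.41 in WT and 95.3% ± 2.87 in Zfp36ΔARE skin.

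The immune cell lists did not all move alike beside these 2 groups. The macrophage marker sum in Zfp36ΔARE libraries was below its lowest WT value in all 5, as were Serpinb9 and the adipocyte, endothelial and sebaceous sums. Neutrophil markers, 10 in the table, summed to 50.2 to 197 CPM in WT and 43.1 to 715 CPM in Zfp36ΔARE libraries, highest in replicate 4, and 1 of the 5 tested was lower. S100a8 and S100a9 (Zfp36ΔARE means 1997 and 3141 normalized counts) carried most of this sum. Both are also stressed keratinocyte markers, whose sum was highest in replicate 4 too (9900 CPM). Ly6g, Elane, Ltf, Mpo and Camp had only 1 to 68 counts over all libraries, so the sum does not read neutrophils alone. The summed level of 8 mast cell markers was 232 to 581 CPM in WT and 128 to 163 CPM in Zfp36ΔARE libraries (7 of 8 lower, against 19.1% of all tested genes, and Kit higher with log2 fold change 0.29, SE 0.059, adjusted p = 0.00885). T and NK cell markers, 10 in the table, summed to 24.8 to 44.4 and 26.4 to 34.9 CPM, and 0 of the 7 tested passed with edgeR or with DESeq2, nor had any an unadjusted p under 0.05. The part of these cells in the Serpinb1 and Serpinb9 differences was not tested.

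**Figure D4:**
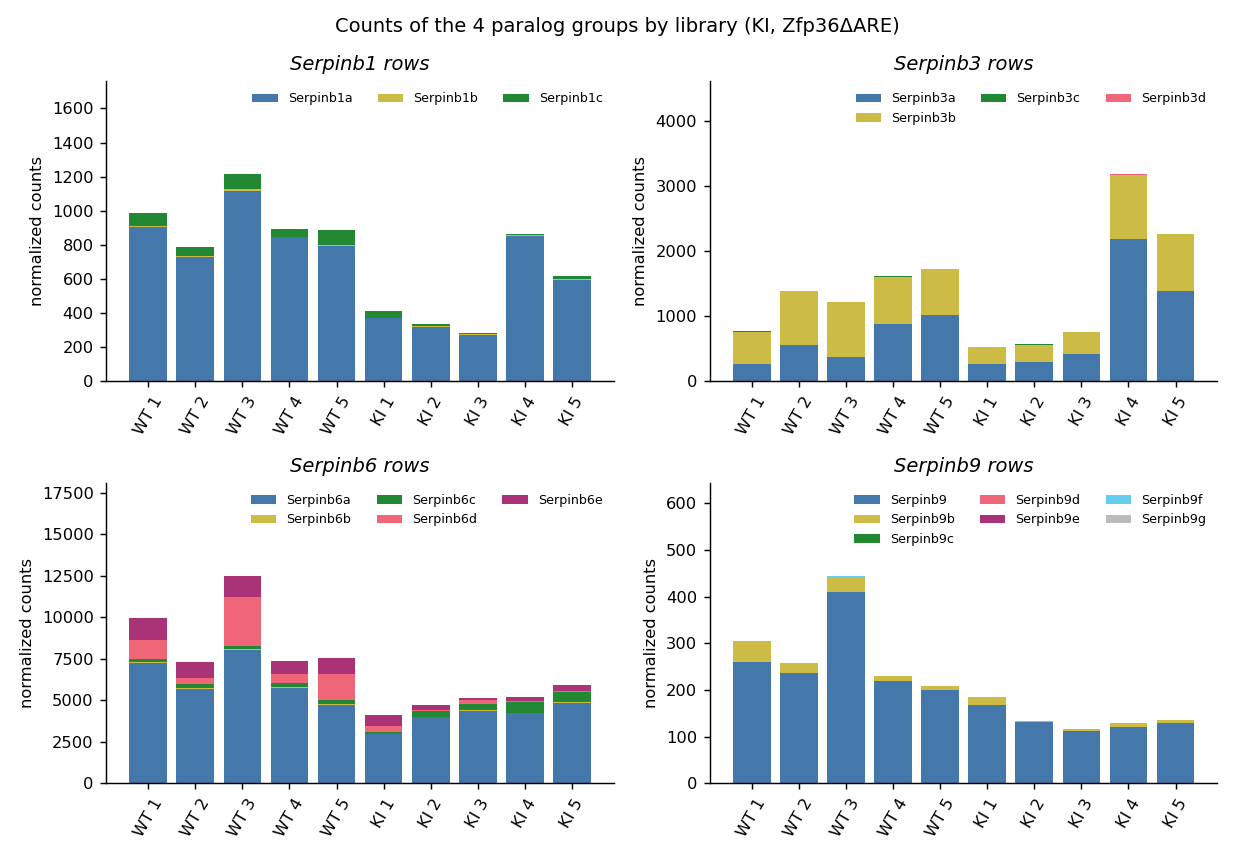
Stacked normalized counts of the rows of the Serpinb1, Serpinb3, Serpinb6 and Serpinb9 groups, one bar per library (WT 1 to 5, then Zfp36ΔARE 1 to 5, marked KI). One row carries most of the Serpinb1 and Serpinb9 bars, Serpinb6a carries 71.1% of the WT Serpinb6 sum on average, and Serpinb3a and Serpinb3b share the Serpinb3 bars.

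The Serpinb3 group, which holds the mouse relatives of the squamous cell carcinoma antigens and inhibits cathepsins and serine proteases, overlapped between the genotypes. Serpinb3a had 266, 559.8, 383, 886 and 1022 normalized counts in WT and 271, 295, 427, 2183 and 1392 in Zfp36ΔARE skin (log2 fold change 0.54, 95% interval -0.88 to 1.97, adjusted p = 0.525). Serpinb3b had 499, 833, 838, 725 and 699.5 normalized counts in WT and 258, 272, 332, 987 and 864 in Zfp36ΔARE skin (log2 fold change -0.42, 95% interval -1.28 to 0.45, adjusted p = 0.42). In both genes Zfp36ΔARE replicates 1 to 3 were low and replicates 4 and 5 were high, higher than every WT library. Together the 4 rows had 1348 ± 377 normalized counts in WT and 1463 ± 1197 in Zfp36ΔARE skin (log2 fold change 0.11, SE 0.51, adjusted p = 0.877), a spread in the Zfp36ΔARE group nearly as large as its mean.

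Reads of these copies are not fully separable. Of the 50-base stretches of Serpinb3a 15.2% recur in another annotated gene, most often in Gm8080 (9.87%). Of those of Serpinb3b 14.7% recur, most often in Serpinb3c (7.61%). Serpinb3a and Serpinb3b also share stretches with each other, at most 7.61% of those of Serpinb3b. Part of the split of fragments between Serpinb3a and Serpinb3b is therefore uncertain. Serpinb3a made up 44.0% ± 12.3 in WT and 57.6% ± 7.54 in Zfp36ΔARE skin. The ratio of Serpinb3a to Serpinb3b differed by 0.83 (log2, SE 0.39) between genotypes, with an exact permutation p of 0.0873.

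Serpinb12, an inhibitor of trypsin-like proteases that is found in the upper epidermis, showed the same 2 kinds of Zfp36ΔARE library. It had 1828, 2581, 3074, 2331 and 2196 normalized counts in WT and 999, 856, 1017, 3194 and 2960.3 in Zfp36ΔARE skin (log2 fold change -0.42, 95% interval -1.27 to 0.44, adjusted p = 0.415). The summed level of suprabasal and granular keratinocyte markers moved alongside: the 11 genes summed to 14467, 18171, 20833, 19054 and 18330.1 CPM in WT replicates 1 to 5 and to 9195, 10181, 9818, 20096 and 19873 CPM in Zfp36ΔARE replicates 1 to 5. Krt10 and Krt1 had the most counts in WT, at means of 187125 and 117358 normalized counts. Spread among Zfp36ΔARE libraries was wide for Krt1 (90602 ± 61679) and narrow for Dsg1a (16223 ± 1266) and Dsc1 (17564 ± 1302). Zfp36ΔARE replicates 1 to 3 lay below every WT library in this sum, for Serpinb12 and for Serpinb3b, and replicates 4 and 5 lay within or above the WT range. Of the 11 markers 1 passed as higher and 1 as lower with edgeR, against 15.3% and 19.1% of all tested genes, and none was at 0. With DESeq2 the counts were 2 and 3, and at an unadjusted p under 0.05 they were 2 and 5. The part of keratinocyte differentiation in these values was not tested.

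**Figure D5:**
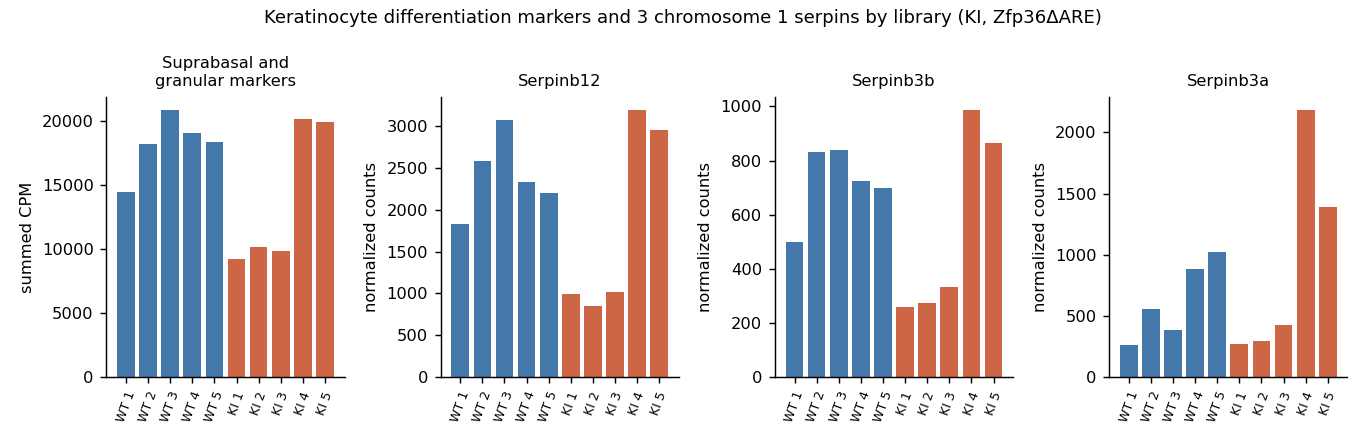
Summed CPM of 11 suprabasal and granular keratinocyte markers and normalized counts of Serpinb12, Serpinb3b and Serpinb3a, one bar per library (WT blue, Zfp36ΔARE orange, marked KI). Zfp36ΔARE replicates 1 to 3 are low and replicates 4 and 5 high in all 4 panels.

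Of the single genes, Serpinb5 carried the most counts, ahead of Serpinb8 and Serpinb2. Serpinb5 had 10602, 14424, 10834, 15508 and 12810.4 normalized counts in WT and 14534, 14875, 15154, 14668 and 16017 in Zfp36ΔARE skin (log2 fold change 0.23, 95% interval -0.015 to 0.47, adjusted p = 0.126). The Zfp36ΔARE values were close to each other, with a coefficient of variation of 3.92% against 16.8% in WT, and the difference passed in 1 of the 10 fits with a library left out, that without WT replicate 4 (log2 fold change 0.31, adjusted p = 0.0445). Of the clade's summed FPKM, Serpinb5 made up 30.6% ± 5.36 in WT and 41.7% ± 5.66 in Zfp36ΔARE skin.

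Serpinb2, which inhibits urokinase and is known as a strongly inducible gene of activated macrophages and keratinocytes, had 2198, 2544, 2858, 3652 and 2476 normalized counts in WT and 2458, 2167, 2765, 3495 and 2338 in Zfp36ΔARE skin (log2 fold change -0.054, 95% interval -0.40 to 0.29, adjusted p = 0.806). The groups overlapped over nearly their whole range. The ratio of Serpinb2 to Serpinb5 differed by -0.30 (log2, SE 0.17), with an exact permutation p of 0.127 before adjustment. Serpinb8 varied least of the tested members in WT (coefficient of variation 5.31%), at 2998, 3357, 3267, 3302 and 3467 normalized counts in WT and 2749, 3157, 2783, 3303 and 3567 in Zfp36ΔARE skin (log2 fold change -0.075, 95% interval -0.25 to 0.10, adjusted p = 0.475).

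Serpinb11 and Serpinb7 moved in opposite directions although they are neighbours on chromosome 1. Serpinb11 had 307, 588, 319.7, 648 and 613 normalized counts in WT and 859, 770.4, 884, 1093 and 802 in Zfp36ΔARE skin, without overlap (log2 fold change 0.83, SE 0.22, adjusted p = 0.0193). It passed in all 10 fits with 1 library left out. WT replicates 1 and 3, its lowest values, are also the WT libraries with the lowest hair shaft sums (681 and 126 CPM against 3012 to 4024 CPM in the other 3). Without both of them its difference was smaller and passed (log2 fold change 0.51, adjusted p = 0.0205), and with the hair shaft level as a second term it did not pass (log2 fold change 0.32, adjusted p = 0.539). That fit called 2 genes higher and 11 lower of all 15543, and 0 of the 19 members, so the loss is not particular to Serpinb11.

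Serpinb7 (megsin), whose loss in humans causes a palmoplantar keratoderma, had 1302, 1111, 1778, 1408 and 1118 normalized counts in WT and 758, 817, 689.6, 790.4 and 1207 in Zfp36ΔARE skin (log2 fold change -0.66, SE 0.17, adjusted p = 0.0178). Zfp36ΔARE replicate 5 lay within the WT range and the other 4 below it. Serpinb13 (headpin), an inhibitor of cathepsins L and K, had 75.5, 85.6, 87.9, 115 and 72.2 normalized counts in WT and 104, 115, 115, 119 and 141 in Zfp36ΔARE skin (log2 fold change 0.44, SE 0.15, adjusted p = 0.0464). It passed in only 1 of the 10 fits with 1 library left out, that without WT replicate 4 (adjusted p 0.0152 to 0.103).

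Serpinb10 (bomapin), known from bone marrow cells, had 301, 263, 500.3, 373 and 258 normalized counts in WT and 177, 191, 194, 354 and 315 in Zfp36ΔARE skin (log2 fold change -0.47, 95% interval -1.02 to 0.087, adjusted p = 0.164). Its annotated exons overlap those of Serpinb2 on the same strand over 291 bases. If those bases were counted, some of its fragments could belong to the far more abundant Serpinb2.

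TTP acts by binding AU-rich elements in 3′-UTRs, whose core is the pentamer ATTTA (written as DNA) and whose extended form is the nonamer TTATTTATT, which contains the pentamer. Both were searched on the mRNA strand of 1 annotated 3′-UTR per gene. Serpinb2 was the only one of the 27 members with the nonamer, which 6.8% of the 20653 3′-UTRs of the annotation and 4.0% of those of similar length hold. It is shown with its flanks, the nonamer in capitals, at base 266 of a 3′-UTR of 651 bases in exon 8.
Serpinb2 (chr1:107525199-107525223, plus strand): ttacagtgTTATTTATTgtttatat
The same 3′-UTR holds 5 pentamers, against a median of 1 in 3′-UTRs of similar length. A match of letters is a description and not a binding site shown in these cells.

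Set beside the genotype differences, pentamers were present in members of both directions. At least 1 pentamer was present in 16 of the 27, and in 5 of the 10 that passed the test, against 61.4% of all annotated 3′-UTRs. That share is not matched for length, and several members have short 3′-UTRs. Serpinb11, one of the 2 higher members, holds 4 in 468 bases, and Serpinb7 and Serpinb9, both lower, hold 3 in 682 and 5 in 2109 bases. Among 3′-UTRs of similar length to these 3, 49.2%, 60.9% and 91.9% hold at least 1. The 3 members that fell more than 2-fold, Serpinb1c, Serpinb6d and Serpinb6e, hold none in 3′-UTRs of 399, 109 and 114 bases, and among 3′-UTRs of similar length 44.5%, 13.3% and 14.2% hold one.

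The proteases that clade B serpins restrain were read beside them, and their counts again stand against 15.3% higher and 19.1% lower of all tested genes. Of the granzymes, which are among the targets of Serpinb6b, Serpinb9 and Serpinb9b, 4 of 10 were tested and 0 passed with edgeR or DESeq2 (1 had an unadjusted p under 0.05, lower). Gzmb had 22.7 ± 5.29 normalized counts in WT and 23.6 ± 6.96 in Zfp36ΔARE skin and Gzma had 9.40 ± 3.83 normalized counts in WT and 8.50 ± 5.21 in Zfp36ΔARE skin. Of the neutrophil proteases that Serpinb1 inhibits, only Prtn3 of 3 passed the filter, at 116 ± 80.5 normalized counts in WT and 58.1 ± 18.8 in Zfp36ΔARE skin (log2 fold change -1.02, SE 0.42, adjusted p = 0.0823, lower with DESeq2). Of 10 cathepsins of the papain fold, all tested, 0 were higher and 2 were lower with edgeR as with DESeq2, near the share of all genes, with a median log2 fold change of -0.027. Ctss, the cathepsin of antigen-presenting cells, had 3631 ± 946 normalized counts in WT and 1489 ± 553 in Zfp36ΔARE skin (log2 fold change -1.29, SE 0.27, adjusted p = 0.00896).

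Of 4 genes of plasminogen activation, the process that Serpinb2 restrains, 3 were tested and 2 were lower with edgeR (3 with DESeq2), against 19.1% of all genes. Plat, the tissue-type activator, had 1111 ± 179 normalized counts in WT and 862 ± 73.3 in Zfp36ΔARE skin (log2 fold change -0.37, SE 0.11, adjusted p = 0.029). Plaur, the urokinase receptor, had 212 ± 38.1 normalized counts in WT and 94.9 ± 26.0 in Zfp36ΔARE skin (log2 fold change -1.17, SE 0.21, adjusted p = 0.0061), and Plau, urokinase itself, had 1331 ± 153 normalized counts in WT and 1058 ± 177 in Zfp36ΔARE skin and did not pass (log2 fold change -0.33, SE 0.12, adjusted p = 0.052). Of 10 caspases and gasdermins of inflammatory cell death, 8 were tested, 0 were higher and 3 were lower with edgeR (1 higher with DESeq2 and at an unadjusted p under 0.05). Gsdmd, the pore-forming gasdermin, was the one past 2-fold, at 576 ± 141 normalized counts in WT and 274 ± 39.5 in Zfp36ΔARE skin (log2 fold change -1.07, SE 0.17, adjusted p = 0.00522).

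Serpins of the other clades, which are mostly secreted, were read in the same fit. Of 37 rows 22 were tested, and 0 were higher and 8 lower with edgeR, against 15.3% and 19.1% of all genes (3 and 10 with DESeq2, 5 and 10 at an unadjusted p under 0.05), with a median log2 fold change of -0.36 against -0.47 for clade B. Serpina3j was lower by more than 2-fold, with 3890.0 ± 821 normalized counts in WT and 1175 ± 296 in Zfp36ΔARE skin (log2 fold change -1.73, SE 0.21, adjusted p = 0.00369).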

How the data were processed

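Libraries of whole back skin, 5 WT and 5 Zfp36ΔARE mice by the labels, were sequenced. The authors aligned reads to mm10 (STAR 2.5.2b), assigned fragments to genes (featureCounts, Subread 1.5.0-p1) and deposited raw counts for 24454 genes. Handling of strand and of fragments matching several genes is not given in the sources used here. The 2 rows without a name (7.38e-05% of counts) were left out.

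From the deposited counts, edgeR 4.0.16 (R 4.3.3) computed TMM factors, filtered with filterByExpr and fitted the robust quasi-likelihood model with genotype as the only term. P-values were adjusted by Benjamini-Hochberg over 15543 genes, and intervals are 95%. The rows of a paralog group were also summed and refitted. Log2 ratios of pairs used normalized counts plus 0.5. Sequences and positions came from GENCODE on GRCm38. Every Serpinb row was named, with fuller values for tested members, and up to 4 members of each list past both thresholds (adjusted p under 0.05, fold over 2), of which 1 is not reported here. A few protease genes outside that rule (Gzma, Gzmb, Prtn3, Plau, Plat) and the marker Kit were named after their values were seen. The members and lists were chosen with earlier results of these data known.

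The script was tested on simulated data. Alternatives were DESeq2 1.42.0, limma-voom (limma 3.58.1), other scalings and filters, a replicate block, Y-linked, hair shaft or macrophage terms and left-out libraries. Each library came from a separate mouse, and 3 counts were 0.0843 to 0.150 CPM per library.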

Additional observations from a re-analysis of the deposited data

Results flagged for a closer look

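Among 46 groups of 5 values, one for each tested member or paralog sum in each genotype, 4 had a sample far from the others by Dixon's test at its 95% level, where chance gives about 1 in 20, or 2.3. For Serpinb7, Zfp36ΔARE replicate 5 had 1207 normalized counts and the other 4 had 689.6 to 817 (gap over range 0.754). For Serpinb9b, Zfp36ΔARE replicate 1 had 17.2 and the other 4 had 2.72 to 6.68 (0.727). For Serpinb9, WT replicate 3 had 409 and the other 4 had 199 to 259.7 (0.711). For the sum of the Serpinb9 rows, Zfp36ΔARE replicate 1 had 184 and the other 4 had 115 to 134 (0.722). In 2 of these 4 the sample is the Zfp36ΔARE library without Y-linked counts.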

How the results depend on the processing

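With DESeq2, limma-voom, other scalings and other filters, the count of lower members stayed between 7 and 9 (main 8) and that of higher members between 1 and 3 (main 2), with 1 under upper-quartile scaling and with no filter. No scaling moved the median of all genes by over 0.1 (log2). Leaving out 1 library gave 1 to 3 higher and 6 to 8 lower, and leaving out WT replicates 1 and 3 together gave 1 and 3. With the hair shaft or the macrophage level as a second term, 0 members passed in either direction (4 and 1 had an unadjusted p under 0.05). Those fits called 13 and 0 of all 15543 genes. The Y-linked term marks whether a library held Y-linked counts, so its genotype difference compares Zfp36ΔARE replicate 1 alone with WT. Only effect sizes are given for it. Replicate numbers did not pair the samples (correlations of same-numbered deviations -0.192 to 0.085, and no sample correlated best with its own number), and the replicate block gave 1 higher and 5 lower.

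Under the hair shaft and macrophage terms these paralog sums lost their calls. Their log2 fold changes were -0.54 and -0.086 for Serpinb1, -0.37 and -0.30 for Serpinb6, and -0.44 and -0.41 for Serpinb9. Under the Y-linked term, with Zfp36ΔARE replicate 1 alone against WT, they were -1.21, -1.12 and -0.65. Serpinb1 also lost its call with the block (-1.02), without WT replicates 1 and 3 (-0.77) and in 5 of the 10 fits with 1 library left out (-1.21 to -0.78, without WT replicate 1 or 3 or Zfp36ΔARE replicate 1, 2 or 3). The Serpinb3 sum, never past the threshold, turned negative with limma-voom (-0.29), the block (-0.22), the Y-linked (-1.34) and hair shaft terms (-0.0037), and without WT replicates 1 and 3 (-0.12), with a leave-one-out range of -0.39 to 0.33. Serpinb6 and Serpinb9 kept their calls in all 10 (-0.90 to -0.68 and -1.18 to -0.84). The cause of these changes was not tested.

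Under the Y-linked term, with Zfp36ΔARE replicate 1 alone against WT, Serpinb3a (-1.20) and Serpinb6c (-0.93) were negative. Single members turned direction under the hair shaft term (Serpinb5 -0.00083) and the macrophage term (Serpinb12 0.65, Serpinb3b 0.51, Serpinb10 0.27, Serpinb9b 0.99, Serpinb1a 0.016). Serpinb2 turned without WT replicate 4 (0.071) or Zfp36ΔARE replicate 2 (0.011), and Serpinb3a without Zfp36ΔARE replicate 4 (-0.072); with 1 library left out their ranges were -0.18 to 0.071 and -0.072 to 0.79. The ratio of Serpinb6a to Serpinb6b turned without WT replicate 5 (-0.019) or Zfp36ΔARE replicate 2 (-0.0091) or 5 (-0.032), within a range of -0.032 to 0.20. Pairs past adjustment numbered 0 to 9 over the leave-one-out fits, the 9 without Zfp36ΔARE replicate 1. Permuting genotype within replicate numbers cannot give an exact permutation p below 0.0625, so no pair could pass there. The protease and other-serpin lists held 15 calls, and 23 with DESeq2. Expressed members numbered 15 to 19 under other levels. Serpinb9b and Serpinb1c, which had 5 and 6 counts in Zfp36ΔARE replicates 4 and 3, dropped out when at least 10 counts in every library were asked for, and depth limits them and the 8 untested members most.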
